A study of Mus musculus with 8 samples.

Results

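The genes described here are 10 cytotoxic lymphocyte genes: Cd3e, Cd8a, Cd8b1, Gzma, Gzmb, Prf1, Nkg7, Klrk1, Ncr1 and Ifng. The rule picks them by symbol among 55487 gene identifiers of the count table, and the set was drawn up with earlier results of these data known. RNA was sequenced from 8 subcutaneous Lewis lung carcinoma (LLC) tumors at day 12 after engraftment, each from another mouse. LLC is a mouse lung carcinoma line, and the hosts were female C57BL/6J mice, which the study's methods say were bought at 6 to 8 weeks of age. In 4 tumors the cancer cells were wild-type, and in 4 they were labelled Ago2 knock-out (ΔAgo2), with Argonaute 2 being the protein that loads small RNAs to silence transcripts. To delete Ago2, the study infected the cells with a CRISPR lentivirus, selected them with puromycin and sorted single-cell clones, and it names 1 clone for engraftment without giving the cell line. Genotype and lentiviral selection cannot be told apart in these tumors, nor can genotype and clone if all ΔAgo2 tumors came from 1 clone. Host cells kept Ago2 in both groups, so lymphocytes were of host genotype throughout.

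Cytotoxic T cells and natural killer (NK) cells kill target cells by releasing granules that hold perforin, which opens membranes, and granzymes, which are proteases that cut proteins inside the target. T cells recognize peptides through a receptor that signals through the CD3 complex, and CD8 binds MHC class I beside it. NK cells and many CD8 T cells also carry NKG2D, a receptor for stress ligands on tumor cells, and both secrete interferon gamma (IFN-gamma). In bulk tumor RNA, fewer cells of a type and less RNA per cell cannot be told apart.

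Total gene counts spanned 7903288 to 52809635 for wild-type and 31846706 to 268564145 for ΔAgo2 tumors. Wild-type tumor 4 was the shallowest, and a count of 0 there allowed up to 0.43 CPM (counts scaled to a common library total after TMM), against 0.0105 CPM in ΔAgo2 tumor 4. These limits use 3 counts and cover counting error only. ΔAgo2 tumor 1 had the highest CPM of all 8 tumors for 9 of the 10 members. For some of them it did not lead per length, as given further on. The targeted transcript, Ago2, ran from 130 to 195 CPM in wild-type tumors and from 118 to 355 CPM in ΔAgo2 tumors (log2 fold change 0.64, SE 0.30, adjusted p = 0.205). Because these counts include host cells and cover the whole gene, they could not check the knock-out label.

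Over all 16061 genes tested with edgeR's quasi-likelihood test, 560 (3.49%) passed an adjusted p of 0.05, and the median log2 fold change of ΔAgo2 over wild-type was 0.04. The called genes were higher in ΔAgo2 tumors for 1.36% of all genes and lower for 2.12%. Of the 9 members tested, 0 passed in either direction, while 4 (Gzmb, Klrk1, Prf1 and Ncr1) had an unadjusted p below 0.05, as had 26.7% of all genes. DESeq2's Wald test called 1 member, Gzmb. Each of the 9 tested members had a positive estimate, with a median of 0.72, and 52.5% of all genes tested were positive. The members share libraries, so their signs are not independent. Cd3e stood at only 0.01, and Cd3e, Cd8a, Cd8b1 and Nkg7 turned negative without ΔAgo2 tumor 1. The groups did not overlap in CPM for 3 members, Gzmb, Prf1 and Ncr1, nor for 16.4% of all genes, 8.05% with the ΔAgo2 tumors higher. Ifng fell under the count filter and has no test.

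The sequences upstream of these 3 members are shown first, beside those of Gzmd and Gzmg, neighbors of Gzmb that are described further on. Each run covers 250 bases before the RefSeq start on GRCm38.p6, read 5′ to 3′ on the gene's strand, and capitals mark matches on either strand to a T-box core (TCACAC), a RUNX core (TGTGGT) or an AP-1 motif (TGANTCA).
Gzmb (chr14:56262335-56262584, minus strand): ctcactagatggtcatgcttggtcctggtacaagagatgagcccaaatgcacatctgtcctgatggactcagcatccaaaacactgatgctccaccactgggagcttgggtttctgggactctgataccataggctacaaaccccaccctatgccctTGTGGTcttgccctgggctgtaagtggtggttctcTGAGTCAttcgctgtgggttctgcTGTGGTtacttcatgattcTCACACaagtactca
Prf1 (chr10:61297586-61297835, plus strand): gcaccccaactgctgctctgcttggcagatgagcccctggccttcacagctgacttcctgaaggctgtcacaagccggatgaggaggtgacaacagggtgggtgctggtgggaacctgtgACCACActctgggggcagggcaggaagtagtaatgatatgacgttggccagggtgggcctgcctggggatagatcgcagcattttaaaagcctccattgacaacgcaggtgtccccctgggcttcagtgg
Ncr1 (chr7:4337465-4337714, plus strand): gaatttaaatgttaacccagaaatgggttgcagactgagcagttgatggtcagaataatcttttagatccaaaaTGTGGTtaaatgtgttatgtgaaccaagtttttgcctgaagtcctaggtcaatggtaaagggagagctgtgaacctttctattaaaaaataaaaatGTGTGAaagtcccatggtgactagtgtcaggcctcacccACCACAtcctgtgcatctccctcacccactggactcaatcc
Gzmd (chr14:56132594-56132843, minus strand): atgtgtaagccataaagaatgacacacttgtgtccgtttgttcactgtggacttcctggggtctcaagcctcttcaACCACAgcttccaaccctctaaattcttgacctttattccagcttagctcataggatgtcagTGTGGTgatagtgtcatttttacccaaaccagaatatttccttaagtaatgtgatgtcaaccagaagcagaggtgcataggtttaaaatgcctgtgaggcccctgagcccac
Gzmg (chr14:56159580-56159829, minus strand): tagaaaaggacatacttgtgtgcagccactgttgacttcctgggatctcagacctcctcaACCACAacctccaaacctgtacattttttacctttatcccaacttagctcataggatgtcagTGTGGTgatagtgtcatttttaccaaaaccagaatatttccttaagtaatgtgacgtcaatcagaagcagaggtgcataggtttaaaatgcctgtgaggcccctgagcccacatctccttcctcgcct
T-box factors such as T-bet and Eomes, and RUNX factors such as Runx3, are known regulators of cytotoxic genes. RefSeq promoters were found for 9 of the 10 members. A RUNX core stood in 6 of these 9 (Gzma, Gzmb, Prf1, Nkg7, Klrk1 and Ncr1) and in 14% of 32851 mouse promoters. The T-box core stood in 3 member promoters, those of Gzmb, Nkg7 and Ncr1, and in 12.3% of all. The AP-1 motif stood in the Gzmb promoter and in 6.75% of all. The IFN-gamma-type motif TTCNNNGAA, absent from the runs above, stood in the promoters of Nkg7 and Ifng and in 7.02% of all. The Gzmd and Gzmg runs share an identical stretch of 51 bases, whereas the longest stretch that Gzmb shares with Gzmd is 8 bases. These matches describe letters only.

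Among the T cell genes, Cd3e had nearly equal means, and the positive estimates of Cd8a and Cd8b1 turned negative without a single ΔAgo2 tumor. Cd3e encodes the epsilon chain of the CD3 complex (ENSMUSG00000032093.7, GRCm38 chromosome 9, 44998740 to 45009627). Its raw counts, given here and throughout in the order of tumors 1 to 4, were 67, 43, 27 and 16 in the wild-type group and 176, 92, 31 and 186 in the ΔAgo2 group. On the CPM scale these were 1.26, 2.05, 0.568 and 2.29 against 3.61, 0.807, 0.925 and 0.651. ΔAgo2 tumor 1 was the highest, and the other ΔAgo2 tumors lay below 3 of the 4 wild-type tumors. The means were 1.54 ± 0.786 and 1.499 ± 1.41 CPM (SD, n = 4 each), with a log2 fold change of 0.01 (SE 0.63, adjusted p = 0.995). Without ΔAgo2 tumor 1 the estimate was -0.92.

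Cd8a and Cd8b1 encode the alpha and beta chains of CD8 and lie side by side on chromosome 6 (71373427 to 71379173 and 71322788 to 71337494). Cd8a had 50, 16, 20 and 9 counts in wild-type and 134, 83, 20 and 176 in ΔAgo2 tumors. In CPM, Cd8a was 0.937, 0.763, 0.420 and 1.29 against 2.75, 0.728, 0.597 and 0.616. As for Cd3e, only tumor 1 of the ΔAgo2 group exceeded the wild-type range. The log2 fold change of Cd8a was 0.52 (SE 0.59, adjusted p = 0.589), and -0.33 without that tumor. Cd8b1 had 29, 13, 5 and 5 counts against 112, 38, 11 and 103, or 0.543, 0.620, 0.105 and 0.717 CPM against 2.30, 0.333, 0.328 and 0.361 CPM. Its log2 fold change was 0.83 (SE 0.80, adjusted p = 0.516), and -0.43 without ΔAgo2 tumor 1. The other ΔAgo2 tumors thus lay below 3 of 4 wild-type tumors for Cd8b1 as well. The log2 ratio of Cd8b1 to Cd8a per kilobase, which does not depend on library scaling, was 0.36 ± 0.68 in wild-type and 0.55 ± 0.36 in ΔAgo2 tumors (SD, n = 4 each) and overlapped.

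**Figure D1:**
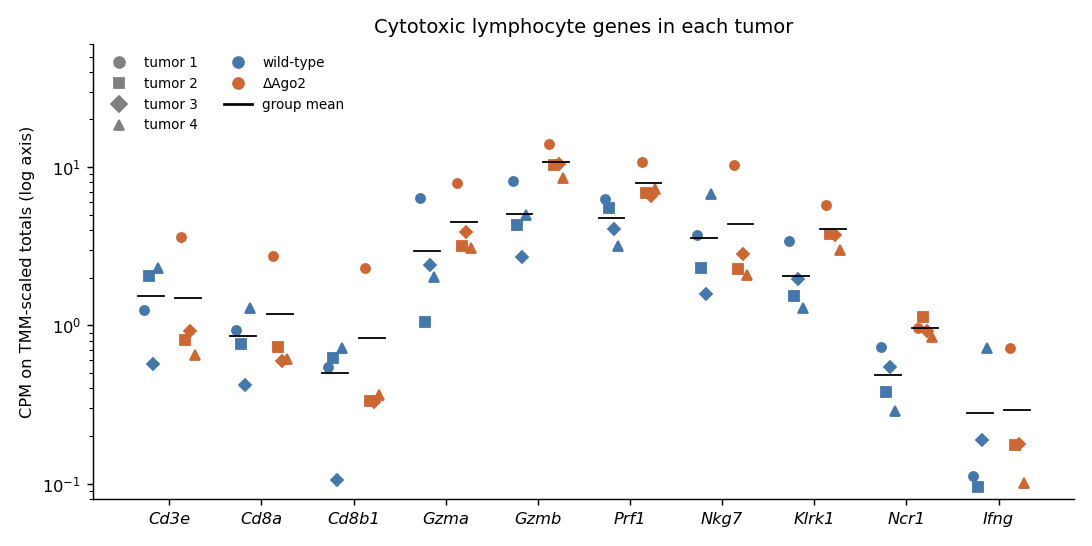
CPM on TMM-scaled totals (log axis) of the 10 cytotoxic lymphocyte genes in each of 4 wild-type and 4 ΔAgo2 tumors. Marker shapes give tumor numbers, which were not treated as pairs, and bars give group means. On this scale ΔAgo2 tumor 1 (circles) was highest for 9 genes, and the groups were apart for Gzmb, Prf1 and Ncr1.

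Among the granule genes, the groups did not overlap for Gzmb and Prf1 and overlapped for Gzma and Nkg7. Gzmb encodes granzyme B, the protease that cuts caspases in target cells (ENSMUSG00000015437.5, chromosome 14, 56258838 to 56262260, minus strand). It had 438, 90, 128 and 35 counts in wild-type tumors and 686, 1167, 348 and 2451 in ΔAgo2 tumors. These were 8.21, 4.29, 2.69 and 5.02 CPM against 14.1, 10.2, 10.4 and 8.58 CPM. The lowest ΔAgo2 tumor exceeded the highest wild-type tumor by 0.373 CPM. The means were 5.05 ± 2.32 and 10.8 ± 2.32 CPM (SD, n = 4 each), a log2 fold change of 1.09 (SE 0.34, 2.13-fold, adjusted p = 0.0933) that missed the threshold after adjustment. Gzmb passed it with DESeq2's Wald test (1.10, adjusted p = 0.0266), when gene length was corrected for (1.18, adjusted p = 0.0487) and when wild-type tumor 1 was left out (1.47, adjusted p = 0.0426). Over all alternatives its adjusted p ran from 0.0266 to 0.217. With every library thinned to 7903288 counts, Gzmb kept 153 counts over the 4 wild-type tumors and 364 over the 4 ΔAgo2 tumors. The same thinning left 146 and 241 counts of Prf1, 57 and 125 of Klrk1, 13 and 31 of Ncr1, 40 and 57 of Cd3e, and 11 in each group of Ifng. It left 101 and 128 of Gzma, 110 and 125 of Nkg7, 27 and 33 of Cd8a, and 20 and 23 of Cd8b1. These sums over tumors come from a single random draw and hide the spread. Of the 57 Cd3e counts, ΔAgo2 tumor 1 held 37.

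Prf1 encodes perforin (ENSMUSG00000037202.6, chromosome 10, 61297833 to 61304680). Its counts were 336, 115, 192 and 22 in wild-type and 529, 783, 219 and 2090 in ΔAgo2 tumors. In CPM it was 6.30, 5.48, 4.04 and 3.15 against 10.9, 6.87, 6.54 and 7.32. The groups were apart by 0.241 CPM, a small gap beside the spread within each group. Prf1 averaged 4.74 ± 1.41 and 7.89 ± 2.00 CPM (SD, n = 4 each; log2 fold change 0.72, SE 0.30, adjusted p = 0.159). Over the alternatives the estimate of Prf1 ran from 0.42 to 0.96 and its adjusted p from 0.0954 to 0.302.

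Gzma, which encodes granzyme A, a tryptase (chromosome 13, 113093825 to 113100981), had 338, 22, 114 and 14 counts against 386, 361, 131 and 883. Its CPM of 6.33, 1.05, 2.40 and 2.01 in wild-type tumors overlapped with 7.92, 3.17, 3.91 and 3.09 in ΔAgo2 tumors through wild-type tumor 1 alone. The log2 fold change of Gzma was 0.58 (SE 0.53, adjusted p = 0.491). Leaving out wild-type tumor 1 gave 1.32, and leaving out ΔAgo2 tumor 1 gave 0.16. The log2 ratio of Gzma to Gzmb per kilobase was 0.14, -1.49, 0.35 and -0.78 in wild-type tumors and -0.32, -1.18, -0.89 and -0.96 in ΔAgo2 tumors. The share of granzyme A to granzyme B message thus varied widely among wild-type tumors, and the groups overlapped.

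Nkg7 encodes a membrane protein of cytotoxic granules (chromosome 7, 43437073 to 43438249). It had 199, 48, 75 and 47 counts in wild-type and 504, 259, 94 and 597 in ΔAgo2 tumors, or 3.73, 2.29, 1.58 and 6.74 CPM against 10.3, 2.27, 2.81 and 2.09 CPM. Nkg7 followed the T cell genes rather than Gzmb, in that ΔAgo2 tumor 1 was high and the other 3 lay inside the wild-type range. Its log2 fold change was 0.33 (SE 0.61, adjusted p = 0.747), and -0.54 without ΔAgo2 tumor 1.

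Both NK-associated receptor genes had higher means in ΔAgo2 tumors, with neither past the threshold. Ncr1 encodes NKp46, an activating receptor found mainly on NK cells and other innate lymphoid cells (ENSMUSG00000062524.4, chromosome 7, 4337724 to 4345164). Its counts were low, at 39, 8, 26 and 2 in wild-type and 47, 129, 31 and 242 in ΔAgo2 tumors. In CPM, Ncr1 was 0.731, 0.381, 0.547 and 0.287 against 0.964, 1.13, 0.925 and 0.847. The groups were apart by 0.116 CPM, and Ncr1 was the member in which ΔAgo2 tumor 1 did not lead in CPM. The means were 0.486 ± 0.195 and 0.967 ± 0.120 CPM (SD, n = 4 each; log2 fold change 0.90, SE 0.38, adjusted p = 0.165). Its estimate was 0.89 without ΔAgo2 tumor 1. The wild-type value of tumor 4 rested on 2 counts, and its CPM lay below the 0.43 CPM that a count of 0 would allow there.

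Klrk1 encodes NKG2D (ENSMUSG00000030149.15, chromosome 6, 129610323 to 129623864). It had 182, 32, 94 and 9 counts in wild-type and 279, 430, 124 and 850 in ΔAgo2 tumors, or 3.41, 1.53, 1.98 and 1.29 CPM against 5.72, 3.77, 3.70 and 2.98 CPM. Wild-type tumor 1 overlapped with the lowest ΔAgo2 tumor. Klrk1 averaged 2.05 ± 0.950 and 4.04 ± 1.18 CPM (SD, n = 4 each; log2 fold change 0.94, SE 0.37, adjusted p = 0.147). This estimate moved with a correction for base composition. Across genes tested, log2 fold change correlated with the GC content of the longest transcript (Spearman's rho -0.561, n = 16059 genes, which share libraries and are not replicates). Klrk1 has 32.7% GC, against a median of 49.8%, and after each library's GC trend was removed its log2 fold change was 0.04. The corrected values of the other members with unadjusted p below 0.05 were 0.83 for Gzmb, 0.88 for Prf1 and 0.56 for Ncr1.

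**Figure D2:**
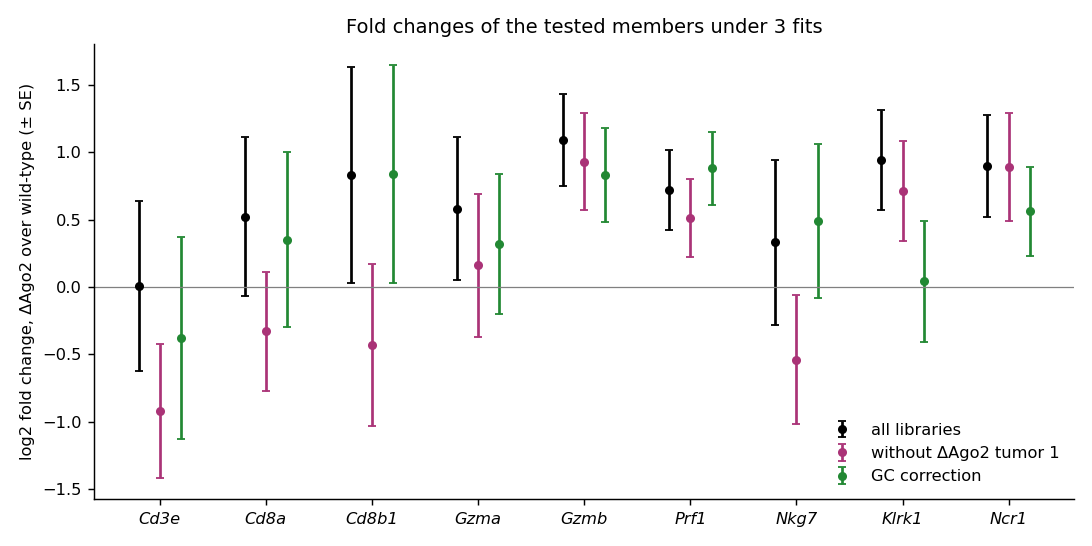
Log2 fold change of ΔAgo2 over wild-type tumors (points, with bars for the standard error) for the 9 tested members, with all libraries, without ΔAgo2 tumor 1, and with the GC correction. Cd3e, Cd8a, Cd8b1 and Nkg7 fell below 0 without ΔAgo2 tumor 1, Klrk1 went to 0.04 with the GC correction, and Gzmb, Prf1 and Ncr1 stayed above 0 in all 3 fits.

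Ifng, the cytokine of the set (ENSMUSG00000055170.4, chromosome 10, 118441046 to 118445892), had few counts. There were 6, 2, 9 and 5 counts in wild-type and 35, 20, 6 and 29 in ΔAgo2 tumors. In CPM these were 0.112, 0.0954, 0.189 and 0.717 against 0.718, 0.176, 0.179 and 0.102. ΔAgo2 tumors 2 to 4 lay among wild-type tumors 1 to 3, and 1 tumor of each group was higher, that of the wild-type group from 5 counts. With no count filter the estimate of Ifng was 0.48 (edgeR, adjusted p = 0.726).

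Levels were compared between members only per length, as TPM, a share of all transcripts, computed from the counts and exon lengths. In wild-type tumors the order began with Nkg7 (9.64 ± 4.44), Gzmb (9.30 ± 4.82), Gzma (7.94 ± 6.86) and Prf1 (4.98 ± 1.96 TPM, SD, n = 4). These 4 levels overlapped among tumors. The other 6 members were lower, from Cd3e at 0.960 ± 0.436 down to Ifng at 0.498 ± 0.421 TPM, and neighbors in that order were within each other's spread. In ΔAgo2 tumors Gzmb came first at 22.7 ± 2.50 TPM, followed by Gzma (12.9 ± 3.02), Nkg7 (12.8 ± 8.02) and Prf1 (9.13 ± 0.806 TPM). Ncr1, at 1.96 ± 0.544 TPM, stood above Cd3e there, at 0.980 ± 0.645 TPM, whereas Cd3e stood just above Ncr1 in wild-type tumors. Gzmb and Prf1 were narrow within the ΔAgo2 group, at 20.3 to 26.1 and 7.97 to 9.72 TPM, while Nkg7 ran from 7.77 to 24.8 TPM. ΔAgo2 tumor 2 was highest for Gzmb (26.1 TPM, against 21.5 in ΔAgo2 tumor 1), Prf1 (9.72 against 9.21) and Klrk1 (1.92 against 1.75). Gzma was highest in wild-type tumor 1 (17.9 against 17.25 in ΔAgo2 tumor 1). Klrk1 overlapped in CPM but not as TPM, with at most 1.35 in wild-type and at least 1.41 in ΔAgo2 tumors. The share of all genes apart in TPM was not computed.

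Ratios within a library set NK and granule message against T cell message. The log2 ratio of Ncr1 to Cd3e per kilobase, with a pseudocount of 0.5 count, was 0.63, -0.95, 1.35 and -1.32 in wild-type and -0.49, 1.89, 1.41 and 1.78 in ΔAgo2 tumors. Tumors 2 to 4 of the ΔAgo2 group were above every wild-type tumor, the closest at 1.41 against 1.35, and ΔAgo2 tumor 1 fell inside the wild-type range. The low ratios of wild-type tumors 2 and 4 rested on 8 and 2 counts of Ncr1. The means were -0.07 ± 1.27 and 1.15 ± 1.11 (SD, n = 4 each), and 1.69 ± 0.26 over the 3 ΔAgo2 tumors without tumor 1. For Prf1 to Cd3e the log2 ratio was 2.98, 2.07, 3.47 and 1.11 against 2.24, 3.74, 3.46 and 4.15, with means of 2.40 ± 1.04 and 3.40 ± 0.82. Ifng to Cd3e (-1.0 ± 1.30 against -0.70 ± 0.21) and Klrk1 to Ncr1 (-0.25 ± 0.16 against -0.20 ± 0.37) had closer means. All 6 ratios computed overlapped between groups, and they are given as a description with no test.

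**Figure D3:**
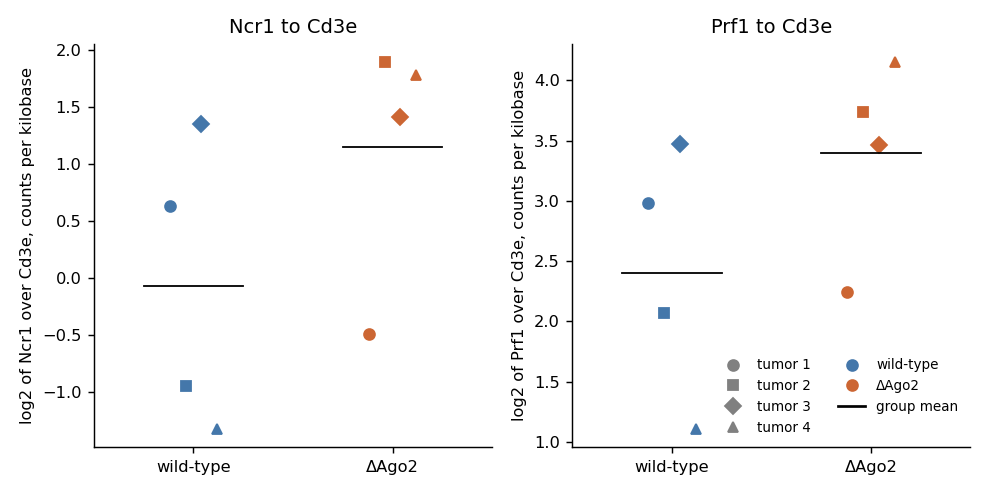
Log2 ratios of Ncr1 and Prf1 to Cd3e within each tumor, on counts per kilobase of exon, with bars for group means. ΔAgo2 tumor 1 (circle) had the lowest ratio of its group in both panels, -0.49 for Ncr1 and 2.24 for Prf1.

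Companion genes of the same pathway numbered 101 in 8 lists, written from general knowledge but with earlier results of these data known, so their share of calls is a description. Of 89 tested, 7 (7.87%) passed the threshold, all higher in ΔAgo2 tumors, where 3.49% of all genes passed. In some other fits the share was close to or below that of all genes. It was 14.1% against 13.1% with DESeq2's Wald test and 21.3% against 27.9% with limma voom. It was 3.7% against 4.53% with at least 10 counts required in each library, and 11.1% against 11% without ΔAgo2 tumor 1. In every other fit it was above that of all genes, as at 7.87% against 3.78% with the GC correction. With thinning it was 9.52% against 3.96%, and 1.1% against 0.87% without wild-type tumor 2. Leaving out wild-type tumor 2 or ΔAgo2 tumor 4 left 1 companion call. The 7 companion genes called with all libraries were Gzmd, Gzme, Gzmf, Gzmg and Tnfsf10 among granule and killing effectors, Ulbp1 among NKG2D ligands, and Il15 upstream of IFN-gamma. The granule and killing list had 5 of 18 tested genes higher and 0 lower, with a median log2 fold change of 0.71.

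Gzmd, Gzme, Gzmf and Gzmg encode granzymes of the rodent cluster that also holds Gzmb and Gzmc. These 6 genes lie within 144635 bases of chromosome 14 (56117626 to 56262260), and any further genes of that interval are not described here. Gzmd had 172, 38, 139 and 18 counts in wild-type and 1235, 1008, 294 and 4591 in ΔAgo2 tumors. In CPM it was 3.22, 1.81, 2.92 and 2.58 against 25.3, 8.84, 8.78 and 16.1. The lowest ΔAgo2 tumor was thus well above the highest wild-type tumor, by 5.55 CPM. Gzmd rose 5.56-fold (log2 fold change 2.47, SE 0.39, adjusted p = 0.0103) and passed in each of 22 alternatives, with adjusted p of at most 0.044.

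Gzmf followed at 3.73, 0.572, 3.17 and 0.287 CPM in wild-type against 28.7, 9.56, 10.5 and 16.4 CPM in ΔAgo2 tumors (log2 fold change 2.95, SE 0.65, adjusted p = 0.0384). Gzmg was 2.29, 1.43, 2.50 and 0.143 CPM against 22.5, 8.396, 6.12 and 14.9 CPM (2.91, SE 0.58, adjusted p = 0.0276). Gzme was 1.16, 0.477, 0.925 and 0 CPM against 8.37, 3.11, 2.27 and 5.15 CPM (2.70, SE 0.64, adjusted p = 0.0471). In each of these genes ΔAgo2 tumor 1 was highest and the groups were apart. Wild-type tumor 4 held 0 counts of Gzme, 1 of Gzmg and 2 of Gzmf, so these values are close to its limit. Calls were less stable than for Gzmd: with wild-type tumor 2 or 4 or ΔAgo2 tumor 2, 3 or 4 left out, Gzme and Gzmf missed the threshold, and Gzmg missed it without wild-type tumor 2 or ΔAgo2 tumor 4. Over all alternatives the call held in 10 of 21 for Gzme, 13 of 21 for Gzmf and 15 of 21 for Gzmg.

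Gzmc, between these genes and Gzmb, was 16.6, 7.63, 13.6 and 9.17 CPM against 40.5, 20.4, 17.0 and 19.7 CPM, apart but not past the threshold (log2 fold change 1.04, SE 0.34, adjusted p = 0.101). Its estimate was close to the 1.09 of Gzmb, at the same end of the cluster. The cluster's genes resemble each other, and how reads with several matches were counted is not given in the sources used here. Of 31-base stretches in the Gzmd transcript, 38.2% also occurred in another gene of the family, as did 41.3% in Gzme, 33.8% in Gzmg, 21.7% in Gzmf, 14.8% in Gzmc and 1.35% in Gzmb. At the read length of 100 bases the shares were at most 0.247%. How far counts were split among these genes was not tested. The sum of Gzmd, Gzme, Gzmf and Gzmg was 10.4, 4.29, 9.52 and 3.01 CPM in wild-type and 84.9, 29.9, 27.7 and 52.5 CPM in ΔAgo2 tumors, which does not depend on a split within the 4.

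**Figure D4:**
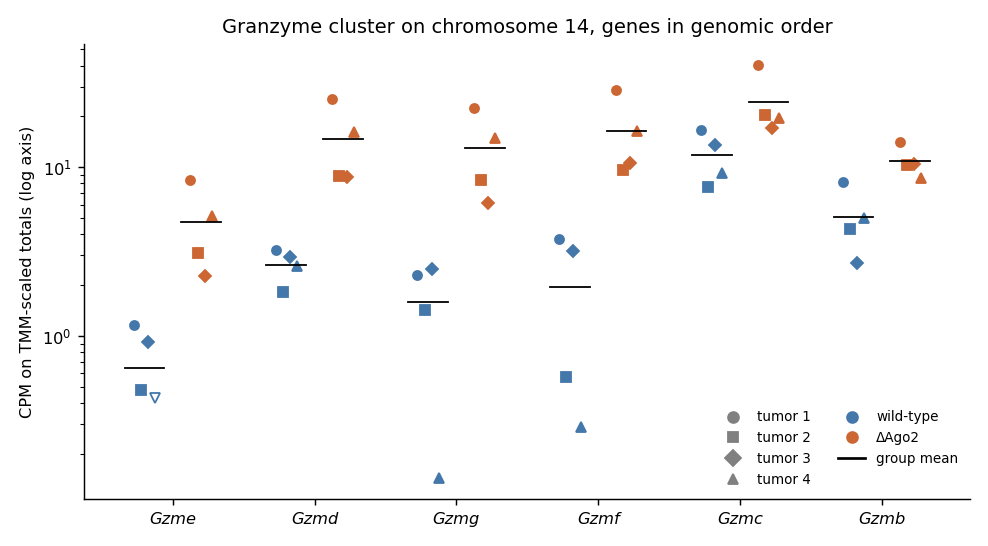
CPM (log axis) of 6 granzyme genes in the order in which they lie on chromosome 14, in each wild-type and ΔAgo2 tumor, with bars for group means. The open triangle marks the 0 counts of Gzme in wild-type tumor 4, drawn at the limit of 0.43 CPM, and the groups were apart for all 6 genes.

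Ulbp1, which encodes a ligand of NKG2D, had 534, 172, 456 and 18 counts in wild-type and 857, 9523, 1175 and 17431 in ΔAgo2 tumors. This was 10.01, 8.20, 9.59 and 2.58 CPM against 17.6, 83.5, 35.1 and 61.0 CPM, a 6.35-fold rise (log2 fold change 2.67, SE 0.51, adjusted p = 0.0228). ΔAgo2 tumor 1, the highest tumor for Klrk1 in CPM, was the lowest of its group for Ulbp1. As TPM, ΔAgo2 tumor 2 was highest for both genes, at 1.92 for Klrk1 and 45.4 for Ulbp1. Ulbp1 kept its call in 15 of 22 alternatives, and with the GC correction its log2 fold change was 1.98 (adjusted p = 0.0176). Of the other NKG2D ligands tested, Raet1d had an estimate of 0.67, Raet1e of 0.07 and H60c of 2.00 (adjusted p from 0.153 to 0.885).

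Il15 encodes the cytokine that sustains NK cells and memory CD8 T cells. It was 1.63, 1.05, 1.45 and 0.860 CPM in wild-type and 2.95, 3.74, 3.28 and 2.98 CPM in ΔAgo2 tumors, with groups apart by 1.32 CPM. Il15 rose 2.52-fold (log2 fold change 1.33, SE 0.32, adjusted p = 0.0475), a call that held in 9 of 21 alternatives. Tnfsf10 encodes TRAIL, a death ligand that NK cells and other cells display. It was 1.69, 1.14, 1.18 and 1.15 CPM against 4.41, 7.95, 3.37 and 3.95 CPM, a 3.77-fold rise (1.92, SE 0.36, adjusted p = 0.0222) that held in 13 of 21 alternatives and was 1.39 with the GC correction. Both genes are expressed by many cell types, and which cells carried them was not tested.

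**Figure D5:**
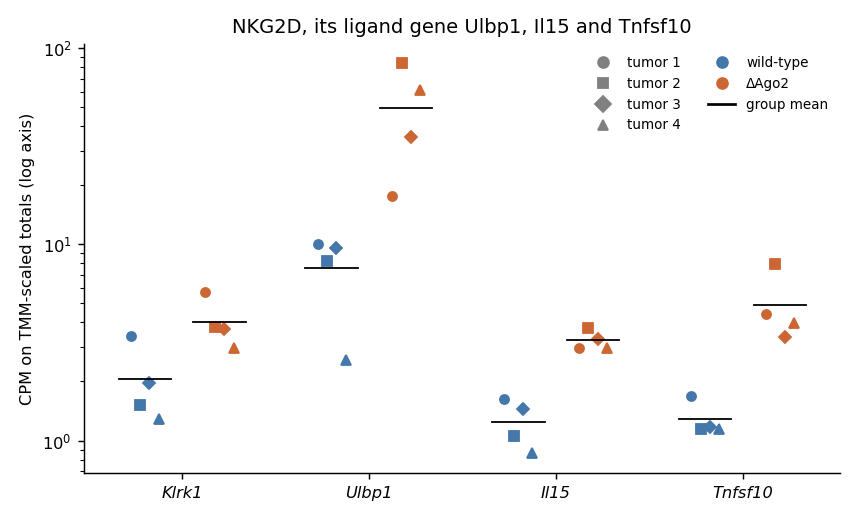
CPM (log axis) of Klrk1 (NKG2D), Ulbp1, Il15 and Tnfsf10 in each wild-type and ΔAgo2 tumor, with bars for group means. In CPM the groups overlap for Klrk1 and are apart for the other genes. ΔAgo2 tumor 1 (circle) is highest for Klrk1 in CPM, though not as TPM, and lowest of its group for Ulbp1.

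The remaining lists held no gene past the threshold. In the list for the T cell receptor and its signaling, 8 of 15 tested genes were positive, with a median of 0.04, equal to that of all genes. Its most abundant genes were Thy1 (-0.49), the kinase Lck (-0.58) and the adhesion receptor Cd2 (0.00). Thy1 averaged 55.7 CPM in wild-type and 39.6 CPM in ΔAgo2 tumors, far above Cd3e at 1.54 and 1.499 CPM. Which cells carried Thy1 was not tested. NK receptors and adaptors had 15 of 20 positive and a median of 0.61, with Fcgr3 at 0.09, the adaptor Tyrobp at 0.54 and Il2rb at -0.28. Those named genes were picked for abundance. Fcgr3 averaged 81.9 CPM in wild-type and 87.4 CPM in ΔAgo2 tumors, and Tyrobp 64.6 and 94.25 CPM. Ncr1 averaged 0.486 and 0.967 CPM. Which cells carried Fcgr3 and Tyrobp was not tested, so they are not a readout of NK cells alone. The lowest adjusted p of that list was 0.067, for Cd244a, an NK and myeloid receptor (1.32, SE 0.36) with 6.26, 3.05, 4.29 and 1.58 CPM against 11, 10.6, 8.87 and 8.67 CPM. That gene, like Gzmc, the NKG2D ligands other than Ulbp1, Tox, Ptprc and Krt10, was singled out after its value was seen. The chemokines Ccl5 (-0.48), Ccl3 (-0.04) and Ccl4 (0.44), which activated cytotoxic cells secrete, had estimates of both signs. Among transcription factors of effector cells, Id2 (0.05), Runx3 (0.11) and Tcf7 (0.11) had estimates near 0, and the list's median was 0.08 over 8 tested genes. Tox, of the same list, was lower in each ΔAgo2 tumor (0.123, 0.202, 0 and 0.123 CPM) than in any wild-type tumor (0.356, 0.238, 0.231 and 1.00 CPM), with an estimate of -1.63 (SE 0.72, adjusted p = 0.177). These values rested on few counts, 19, 5, 11 and 7 in wild-type and 6, 23, 0 and 35 in ΔAgo2 tumors. Genes of the IFN-gamma receptor and its targets had 8 of 11 positive and a median of 0.55, with estimates from -0.62 to 2.03, led in abundance by Jak1 (0.53), Irf1 (0.11) and Ifngr1 (-0.33).

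By the distance between centred log2 CPM values over the 8 libraries, the genes whose pattern was most like the mean of the 9 tested members were Oas1a (root mean square difference 0.128), Gngt2 (0.147), Pycard (0.172), Cd300a (0.190) and Isg15 (0.191). The median over 13066 candidate genes was 0.75. The members' mean profile was 0.25, -0.40, -0.90 and -0.14 in wild-type and 1.31, 0.01, 0.03 and -0.15 in ΔAgo2 tumors. It thus had its peak in ΔAgo2 tumor 1 and its low in wild-type tumor 3. Oas1a showed the same shape, with 63.1 CPM in ΔAgo2 tumor 1 and 16.2 CPM in wild-type tumor 3.

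Markers of other cells that bulk tumors could hold were set beside the members, whose summed level was 31.6, 18.6, 14.5 and 23.5 CPM in wild-type and 59.3, 29.5, 30.3 and 26.6 CPM in ΔAgo2 tumors. Pan-leukocyte markers summed to 462 to 907 CPM in wild-type and 433 to 840 CPM in ΔAgo2 tumors, with 0 of 5 past the threshold. Their estimates had both signs, from -0.87 to 1.12, with 3 of 5 positive and the groups apart for 1. Ptprc, which encodes the leukocyte antigen CD45, had 33.1, 23.1, 25.8 and 13.9 CPM against 35.5, 83.6, 40.9 and 49.6 CPM with groups that did not overlap (log2 fold change 1.12, SE 0.33, adjusted p = 0.0785). Its part in the members' differences was not tested. Macrophage markers summed to 1286 to 1518 CPM in wild-type and to 2072, 1018, 916 and 850 CPM in ΔAgo2 tumors. ΔAgo2 tumor 1, high in T cell genes, held the 2072, and the other ΔAgo2 tumors lay below every wild-type tumor. Of 7 macrophage estimates 1 was positive, with a median of -0.17. An unadjusted p below 0.05 with edgeR was found for 2, and 0 passed the threshold. Markers of CD4 and regulatory T cells (9.04 to 23.2 against 11.5 to 21.9 CPM, 0 of 7 past the threshold) and of naive lymphocytes and lymph node (12.5 to 18.4 against 14.9 to 21.2 CPM) overlapped. Mast cell and basophil markers summed to 107 to 185 CPM in wild-type and to 188, 22.2, 60.8 and 79.6 CPM in ΔAgo2 tumors. ΔAgo2 tumors 2 to 4 thus lay below every wild-type tumor. Of 7 mast cell and basophil estimates 1 was positive, with a median of -0.31, and 0 passed the threshold. Skeletal muscle markers summed to 203 to 3148 CPM in wild-type, with the top in tumor 3, and to 35.2 to 176 CPM in ΔAgo2 tumors, with 0 of 7 past the threshold. Their estimates were all negative, from -3.40 to -2.50 with a median of -3.01, and all 7 had an unadjusted p below 0.05 with edgeR. Keratinocyte markers summed to 10.9 to 563 CPM and 450 to 869 CPM, with the low in wild-type tumor 3 and 1 of 7, Krt10, past the threshold. All 7 keratinocyte estimates were positive, with a median of 1.71. The part of tissue admixture in the members' differences was not tested.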

How the data were processed

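RNA-seq libraries of 8 LLC tumors (4 wild-type, 4 ΔAgo2) were grouped by the titles and genotype labels, and all carry batch label 1. Per the labels, RNA was extracted with TRIzol, and stranded mRNA libraries (Illumina) were sequenced paired-end at 100 bp. The authors deposited raw counts per gene, whole numbers with no normalization, and TPM values, which divide counts by gene length. The submitters' processing notes name STAR and mm10. For cultured cells, the study's methods name featureCounts. The strand setting and treatment of reads with several matches are not given in the sources used here. Of the 55487 identifiers, 99.29% matched GENCODE M21 with their version.

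Counts were tested with edgeR 4.0.16 in R 4.3.3 (filterByExpr, TMM, quasi-likelihood, no covariate, Benjamini-Hochberg adjustment over all genes tested). Depth ran from 7903288 to 268564145 counts, so low genes are less precise in shallow libraries. The procedure was tested on simulated counts. It recovered 9.18% of 98 genes set to an absolute log2 fold change of 1 and 67.7% of 99 genes set to 2. A gene with a log2 fold change near 1, as several members had, could thus often miss the threshold. The members and lists were chosen with earlier results of these data known. Named genes were the members, Ago2, called companion genes or otherwise up to 3 of highest mean CPM per list, and the 5 nearest profiles with a mean of at least 1 CPM. Genes named outside this rule are said to be chosen after their values were seen. Alternatives were DESeq2 1.42.0 (size factors, Wald test), total counts, limma 3.58.1 (voom with quality weights, log2 TPM with pseudocounts of 1 or 0.1 and a filter of 0.5 TPM in 4 libraries or none), a block on the replicate number, no count filter or a minimum of 10 counts per library, GC and length corrections, thinning, and leaving out each library.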

Additional observations from a re-analysis of the deposited data

Results flagged for a closer look

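In 46 groups of 4 tumors, the gap of the most extreme tumor to the next, over the group's range, was compared with Dixon's critical value. It was passed in 8, where 2.3 would be expected if the groups were independent. They come from the same 8 libraries and are not independent, so the 2 numbers are not a test. Of the 8 flags, 6 were in ΔAgo2 tumor 1. For Cd3e this tumor had 3.61 CPM and the other ΔAgo2 tumors 0.651 to 0.925. For Cd8a it had 2.75 CPM against 0.597 to 0.728, and for Cd8b1 2.30 CPM against 0.328 to 0.361. For Gzma it had 7.92 CPM against 3.09 to 3.91, and for Nkg7 10.3 CPM against 2.09 to 2.81. For Ifng it had 0.718 CPM against 0.102 to 0.179. The other flags were Ifng in wild-type tumor 4, 0.717 CPM from 5 counts against 0.0954 to 0.189, and Tnfsf10 in wild-type tumor 1, 1.69 CPM against 1.14 to 1.18.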

How the results depend on the processing

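The positive direction of Gzmb, Prf1 and Ncr1 held in every alternative that gave a value. Cd3e, at 0.01, turned negative with DESeq2 size factors (-0.008), DESeq2's Wald test (-0.003), limma voom (-0.62), the replicate block (-0.22), the GC correction (-0.38), the replicate block with it (-0.63), and limma on log2(TPM + 1) with and without a filter (-0.006 each) or log2(TPM + 0.1) (-0.018). Voom also turned Cd8a (-0.25), Cd8b1 (-0.036), Gzma (-0.30) and Nkg7 (-0.38), and the replicate block with the GC correction turned Klrk1 (-0.029). Leaving out each tumor gave -0.92 to 0.28 for Cd3e, -0.33 to 0.76 for Cd8a, -0.43 to 1.11 for Cd8b1, -0.54 to 0.80 for Nkg7, and 0.87 to 1.47 for Gzmb. Gzmb passed the threshold, making 1 member called in place of 0, with DESeq2's Wald test (1.10), the length correction (1.18) and wild-type tumor 1 left out (1.47), so members called ran from 0 to 1. The cause was not tested. Genes called overall numbered 560, 2265 with DESeq2's Wald test, 4476 with voom, 983 with no count filter, 70 with the replicate block, 313 with the replicate block and GC correction, 1177 with the length correction, 153 with log2(TPM + 1), 107 with log2(TPM + 0.1) and 77 with log2(TPM + 1) unfiltered, and 88 to 1793 with a tumor left out. Companion genes called numbered 7 and in the same order 13, 19, 9, 1, 4, 9, 4, 1 and 1, then 2 with at least 10 counts in every library, and 1 to 10 with a tumor left out (1 without wild-type tumor 2 or ΔAgo2 tumor 4). The median log2 fold change of all genes was 0.04, but 0.21 with log2(TPM + 1) and 0.28 with log2(TPM + 0.1). Deviations of same-numbered tumors correlated at -0.29 to 0.10, and those of differently numbered tumors at -0.22 to 0.32. The numbers were thus not treated as pairs, though 4 libraries per group are too few to settle whether tumors were paired. Deposited TPM moved no ratio or level by more than its SD. Both rest on the same counts divided by gene length, so this checks the computation only. Moving from CPM to TPM did change which tumor led for some members and whether Klrk1 overlapped. Depth limits Ifng, Ncr1 and Cd8b1, with 2 to 9 counts in some wild-type libraries.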
